A study of Mus musculus with 7 samples.

Results

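The genes described here code for matrix proteases and their inhibitors: all mouse genes whose symbol is Adamts, Adamtsl, Mmp or Timp followed by a number. There were 51 such genes among 55450 in the annotation, and 50 of them were annotated as protein-coding, the exception being Mmp1a, a polymorphic pseudogene. A peak was counted at a gene if the depositors' symbol named that gene or if the peak lay in the gene or in the 5000 bp upstream of it. By this rule 15 of the 51 genes had a peak in at least 1 of 4 peak lists, and 36 had none. The cells were ATDC5, an established mouse line of cartilage progenitors, for which the labels name no knockdown or other genotype. A supplement of insulin, transferrin and selenite in the medium induces its chondrogenic differentiation. 5-methylcytosine (5mC) was captured from DNA of day 0 cells, labelled as chondroprogenitors, and of day 10 cells, with 1 sample each. 5-hydroxymethylcytosine (5hmC) was captured from cells at day 5 and at day 10, with 2 samples each that were merged into 1 list per day. The labels do not say whether these came from separate cultures. All day 5 and day 10 cells were labelled as differentiating chondrocytes, and day 0 input DNA (1 sample) has no list and was not analysed here.

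ADAMTS proteins are secreted zinc proteases. Some of them cut aggrecan, the large proteoglycan of cartilage, and others trim the ends of procollagens. The ADAMTS-like proteins share their accessory domains but have no protease domain, the matrix metalloproteinases (MMPs) cut collagens and other matrix proteins, and the TIMPs block these enzymes. 5mC is written at CpG dinucleotides, and TET enzymes oxidize it to 5hmC, which in many tissues is found in the bodies of expressed genes. The lists hold positions of enriched DNA and no expression, so nothing below says whether a gene was transcribed, and the labelled cell type could not be checked by its marker genes.

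Each list gives the start and end of each peak and no height, fold or p-value. Enrichment was at least 3-fold in the 5mC lists and at least 10-fold in the 5hmC lists, over a comparison sample that the file headers leave unnamed. They held 326 (day 0 5mC), 2401 (day 10 5mC), 2058 (day 5 5hmC) and 4164 (day 10 5hmC) peaks. With 1 list per mark and day there is no replicate spread and no test between days. The depth is unknown, so a gene without a peak is one without a listed peak, not one without the mark. The days are those of the labels. Other days are given in the study's text. Its stage names put day 10 5hmC with intermediate cells but day 10 5mC with chondrocytes, and these lists may thus differ in day. The day 5 5hmC list was matched to none of its stages in the shortened tables used here, and day 5 is not among the days its text gives for these profiles. Each comparison of day 5 with day 10 therefore rests on the labels alone.

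5hmC was listed at 12 of the 51 genes at day 10 (23.5%, 95% Wilson interval 14 to 36.8) and at 6 genes at day 5 (11.8%, 5.51 to 23.4). Among all protein-coding genes, 8.32% had a day 10 5hmC peak and 5.27% a day 5 5hmC peak. 5mC was listed at 4 genes at day 10 (7.84%, 3.09 to 18.5) and at 1 gene at day 0 (1.96%, 0.347 to 10.3), beside 6.71% and 0.556% of protein-coding genes. The intervals cover counting error only, treat the genes as independent and are not a test. The genes were also chosen with earlier results of these data known. The interval lay above the background for both 5hmC lists, narrowly at day 5, and held it for both 5mC lists. The families differed: 11 of the 24 ADAMTS and ADAMTS-like genes had day 10 5hmC, against 1 of 23 MMP genes and 0 of 4 TIMP genes. They also differed in length, with medians of 95.2 kb for ADAMTS and ADAMTS-like, 13.8 kb for MMP and 29.7 kb for TIMP genes.

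**Figure D1:**
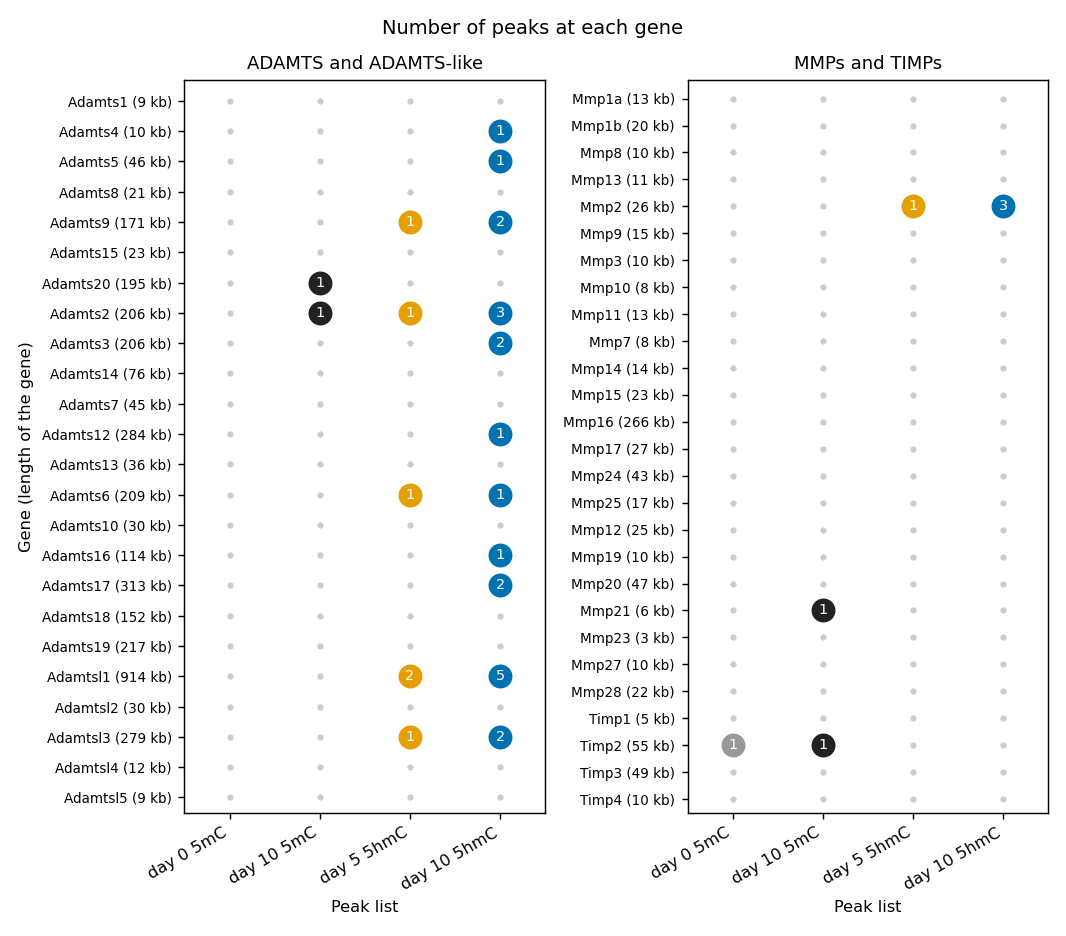
Each circle marks a gene (rows, with the length of the gene in kb) that has peaks in a list (columns), and the number in it is the number of peaks; small grey dots are genes without a peak. The 5hmC columns are filled mainly among the ADAMTS and ADAMTS-like genes, Mmp2 is the MMP gene with 5hmC, and Timp2 the gene with 5mC in both lists.

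Gene length moved with these counts. The genes with a 5hmC peak at either day were 10.2 to 914.2 kb long (median 205.9 kb), and the 39 without one were 2.7 to 266.3 kb long (median 19.8 kb). Of the 15 genes of at least 50000 bp, 9 had day 10 5hmC (60%, 35.7 to 80.2) beside 23.5% of protein-coding genes of that length, and 5 had day 5 5hmC (33.3%, 15.2 to 58.3) beside 14%. These 15 genes were longer (median 206 kb) than protein-coding genes of their class (99.5 kb). For genes of at least 100 kb, a class chosen after seeing the data, the shares were 9 of 13 (69.2%, 42.4 to 87.3) beside 31.9% at day 10 and 5 of 13 (38.5%, 17.7 to 64.5) beside 18.6% at day 5. For day 5 this interval held the background. For 5mC, 3 of the 15 long genes had a day 10 peak (20%, 7.05 to 45.2) beside 16.2%, and 1 a day 0 peak (6.67%, 1.19 to 29.8) beside 1.72%.

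Among the 36 genes under 50000 bp the interval held the background for each list. There were 3 genes with day 10 5hmC (8.33%, 2.87 to 21.8) beside 3.84%, 1 with day 5 5hmC (2.78%, 0.492 to 14.2) beside 2.69%, and 1 with day 10 5mC (2.78%, 0.492 to 14.2) beside 3.9%. For day 0 5mC it was 0 of 36, which allows a share of up to 8.33%, beside 0.212%. The members shorter than 50000 bp with 5hmC were Mmp2, Adamts4 and Adamts5. Per Mb of gene and upstream sequence, there were 4.97 day 10 5hmC peaks at these genes and 2.12 at all protein-coding genes, and 1.51 against 1.1 for day 5 5hmC. The 5mC densities were 0.865 against 1.48 at day 10 and 0.216 against 0.103 at day 0, the latter from 1 peak.

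**Figure D2:**
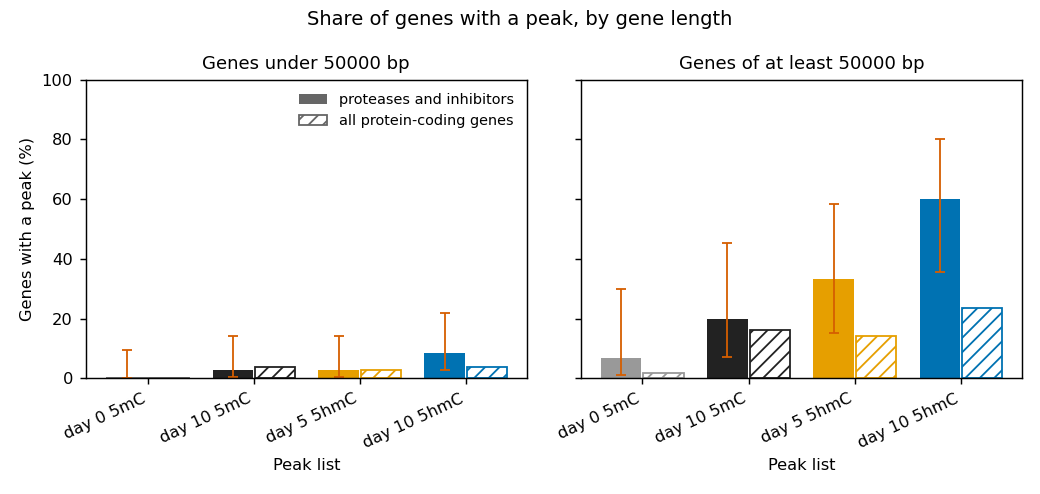
Bars show the percent of genes with a peak in each list, filled for the protease and inhibitor genes (error bars, Wilson 95% intervals) and hatched for all protein-coding genes, for genes under 50000 bp (36 members, left) and of at least 50000 bp (15 members, right). The filled bar of day 10 5hmC among the long genes is at 60%, beside a hatched bar at 23.5%.

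Every gene with 5hmC at day 5 also had it at day 10 (Adamts2, Adamts6, Adamts9, Adamtsl1, Adamtsl3 and Mmp2). The other 6 genes had 5hmC at day 10 only (Adamts3, Adamts4, Adamts5, Adamts12, Adamts16 and Adamts17), and none at day 5 only. Thus 100% of the day 5 genes and 50% of the day 10 genes were in the other list, whereas of all protein-coding genes with 5hmC these shares were 48.1% and 30.5%. That background was not matched for gene length. The genes with 5hmC here had a median length of 205.9 kb, beside 17.4 kb for all protein-coding genes, with or without a peak. Of the 12 genes with day 10 5hmC here, 9 were at least 50000 bp long, beside 1176 of the 1826 protein-coding genes with it. Most peaks overlapped no peak of the other day, at these genes as in the whole lists. An overlap of at least 1 bp was found for 2 of the 7 day 5 peaks and 4 of the 24 day 10 peaks. In the lists it was found for 29.6% and 17.1% of all peaks. Day 10 peaks were narrower (median 170 bp at these genes and 147 bp in the list) than day 5 peaks (640 and 819 bp), so that a broad day 5 peak can hold more than 1 day 10 peak. At day 10, 7 of the 12 genes had more than 1 peak, and 5 did when peaks within 1000 bp were joined, beside 26.2% and 23.2% of protein-coding genes with a peak. These shares were not matched for gene length either.

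The overlaps between days were in 2 genes, and their day 10 sequences are printed because they are the stretches listed at both days. Adamtsl1 codes for an ADAMTS-like matrix glycoprotein without a protease domain. It is the longest of the 51 genes (914.2 kb) and had the most 5hmC peaks. Its day 5 peak at chr4:86299546-86300151 (606 bp, 12 CpG), in intron 14, enclosed day 10 peaks of 121 and 190 bp that were 8 bp apart. On the plus strand of GRCm38, which is the gene's own, with each CpG in capitals, the day 10 stretches read as follows.
Adamtsl1 chr4:86299599-86299719: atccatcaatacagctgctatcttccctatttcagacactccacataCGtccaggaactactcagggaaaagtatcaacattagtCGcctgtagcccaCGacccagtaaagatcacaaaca
Adamtsl1 chr4:86299728-86299917: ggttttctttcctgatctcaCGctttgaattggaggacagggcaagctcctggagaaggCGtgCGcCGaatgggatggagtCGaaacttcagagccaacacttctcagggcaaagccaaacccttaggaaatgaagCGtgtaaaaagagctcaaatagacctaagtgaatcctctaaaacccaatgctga
The first holds 3 CpG and the second 6 CpG (3.16 per 100 bp), and neither holds a base that the reference marks as repeat.

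The day 5 peak of Adamtsl1 was also the only one of the 7 day 5 peaks at these genes with the string TGACTCA or TGAGTCA, the binding sequence of the AP-1 (FOS and JUN) factors, on either strand. It held 2 of them, printed with 12 bases on both sides and the string in capitals.
Adamtsl1 chr4:86299915-86299921: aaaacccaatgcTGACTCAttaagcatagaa
Adamtsl1 chr4:86299970-86299976: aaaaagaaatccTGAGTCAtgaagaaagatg
The first begins at the last bases of the second day 10 peak and the other lies beyond it, so no day 10 peak at these genes held a whole AP-1 string. In the lists, 43.1% of day 5 and 7.97% of day 10 5hmC peaks held one, beside 1 of 7 and 0 of 24 at these genes. In windows of 200 bp around peak midpoints, 2 of the 24 day 10 peaks held one, beside 9.29% of the list. The other Adamtsl1 peaks lay further along the gene. The day 5 peak at chr4:86325863-86326502 in intron 15 had its nearest day 10 peak, chr4:86326813-86327037, at a gap of 310 bp. Day 10 peaks also lay at chr4:86336200-86336349 in intron 15 and at chr4:86416794-86416984 in intron 24. All 7 of its peaks were in the part of the whole gene from 85.9% to 98.7% of its length. The longest coding transcript, which gives the intron numbers, covers only chr4:86053915-86428382. From its start the peak midpoints lay at 245.7 to 363.0 kb, so the place of the peaks depends on the transcript used.

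Adamts9, a protease that cuts aggrecan and versican, was the other gene with a site listed at both days. Its day 5 peak at chr6:92872628-92873267 (640 bp, 13 CpG) overlapped coding exon 20 of 40 and enclosed day 10 peaks of 119 and 115 bp, 78 bp apart. The noncoding gene Gm15737 is annotated at the same place, so the peaks cannot be assigned to either. On the plus strand of GRCm38 (the gene is on the minus strand), with CpG in capitals, the day 10 stretches were these.
Adamts9 chr6:92872721-92872839: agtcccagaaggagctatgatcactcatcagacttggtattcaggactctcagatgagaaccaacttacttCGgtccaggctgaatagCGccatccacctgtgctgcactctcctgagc
Adamts9 chr6:92872918-92873032: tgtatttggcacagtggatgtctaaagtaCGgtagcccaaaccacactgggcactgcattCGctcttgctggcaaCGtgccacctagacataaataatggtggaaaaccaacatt
They hold 2 and 3 CpG. The string AACCACA, bound by RUNX factors, which act in cartilage and bone, occurred at 2 places of the day 5 peak, and the one shown here with the string in capitals lay inside the second day 10 peak.
Adamts9 chr6:92872957-92872963: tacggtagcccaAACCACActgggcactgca
RUNX strings on either strand were in 2 of the 7 day 5 peaks at these genes (Adamts9 and Adamts6) and in 1 of the 24 day 10 peaks, beside 25.6% and 7.56% of the lists. A SOX string (ACAATGG or ACAAAGG, either strand) was in 1 day 5 and 1 day 10 5hmC peak (Adamts2 and Adamtsl3), beside 27.2% and 5.38%. It was also in the day 10 5mC peak of Adamts20, beside 30.2% of that list. No peak at these genes held a full palindromic NF1 site, beside 0.146% and 0% of the 5hmC lists.

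Of the other genes of the aggrecanase group, Adamts4 and Adamts5, the main aggrecanases of cartilage, each had 1 day 10 5hmC peak and none in the other lists. The Adamts5 peak at chr16:85901609-85901880 (272 bp) lay in the 5′ UTR in exon 1, with its midpoint 84 bp from the start of the gene. It was the only 5hmC peak within 1000 bp of a gene start here. It held 12 CpG (4.41 per 100 bp, beside a list median of 1.8). In the RefSeq gene set Adamts5 ends at 85901125, and the peak lies just upstream of the gene. The Adamts4 peak at chr1:171261431-171261565 (135 bp, 1 CpG) was counted by the depositors' symbol, since it lay 794 bp past the end of the gene in GENCODE. In RefSeq the gene runs to 171262267 and contains the peak.

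Adamts20 had no 5hmC but a day 10 5mC peak at chr15:94464899-94465656 (758 bp, 26 CpG, 3.43 per 100 bp), without a symbol from the depositors. It lay at the 5′ end of a noncoding transcript of the gene, 61.0 kb upstream of the start of the longest coding transcript and outside the RefSeq gene, so its place at the gene depends on the gene model. Adamts1, Adamts8 and Adamts15, the remaining genes of this group, had no peak. Adamts1 neighbours Adamts5, and its nearest day 10 5hmC peak, 98.5 kb away, was the one at Adamts5.

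Adamts2, which removes the N-propeptide of fibrillar procollagens, was the only gene here with peaks in both the 5hmC and the 5mC list labelled day 10. As said above, these lists may differ in day. Its day 5 5hmC peak was at chr11:50622314-50623053 in intron 2 (740 bp, 18 CpG). Its day 10 5hmC peaks were at chr11:50672746-50672911, chr11:50705846-50705972 and chr11:50734155-50734367, all in intron 3, and the nearest lay 49.7 kb from the day 5 peak. The day 10 5mC peak at chr11:50717354-50718281 (928 bp, 24 CpG) was in the same intron, between the second and the third 5hmC peak, at gaps of 11.4 and 15.9 kb. The 2 marks were thus listed in 1 intron but at separate sites. The central 300 bp of the 5mC peak are shown on the plus strand, the gene's own, with their 11 CpG in capitals, as the only 5mC stretch here in a gene that also had 5hmC.
Adamts2 chr11:50717668-50717967: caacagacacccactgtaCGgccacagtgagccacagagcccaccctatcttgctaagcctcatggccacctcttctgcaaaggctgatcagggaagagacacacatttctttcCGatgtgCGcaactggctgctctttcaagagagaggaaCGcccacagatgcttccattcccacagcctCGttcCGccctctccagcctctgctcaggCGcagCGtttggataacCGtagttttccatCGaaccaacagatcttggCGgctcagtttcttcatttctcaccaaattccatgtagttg
The noncoding gene Gm12199 is also annotated there. Of all protein-coding genes with a day 10 5mC peak, 27.5% also had day 10 5hmC, beside 1 of 4 here.

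Adamts3, a procollagen N-proteinase of cartilage, had 2 day 10 5hmC peaks. The peak at chr5:89844386-89844517 was in intron 3 and that at chr5:89701593-89701774 overlapped coding exon 13 of 22. They were 142.6 kb apart, and neither had a partner at day 5. Adamts14, the other gene of this group, had no peak. Of the proteases that cut cartilage oligomeric matrix protein, Adamts12 had 1 day 10 5hmC peak at chr15:11203032-11203266 in intron 3 (235 bp, 5 CpG), and Adamts7 had no peak, its nearest being a day 10 5mC peak at 14.9 kb.

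Adamts6, Adamts16 and Adamts17, ADAMTS proteases outside these groups, also had 5hmC. The Adamts6 day 5 peak at chr13:104397731-104398221 overlapped coding exon 13 of 25, and its day 10 peak at chr13:104493868-104493976 was in the 3′ UTR in exon 25, 95.6 kb away. Adamts17 had a pair of day 10 peaks 7 bp apart in intron 16, at chr7:67064494-67064839 and chr7:67064847-67065017. The first, 346 bp wide, was the widest day 10 5hmC peak at these genes. Adamts16 had 1 peak of 135 bp at chr13:70779367-70779501 in intron 10. Adamts10, Adamts18 and Adamts19 had none, nor had Adamts13, the protease of von Willebrand factor.

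The second ADAMTS-like gene with 5hmC, Adamtsl3, had a day 5 peak at chr7:82579796-82580462 in intron 23 and day 10 peaks at chr7:82397157-82397292 in intron 3 and at chr7:82479596-82479765 in intron 7. The closest peaks of the 2 days were 100030 bp apart. Adamtsl2, Adamtsl4 and Adamtsl5, which are 9.3 to 29.6 kb long, had no peak.

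**Figure D3:**
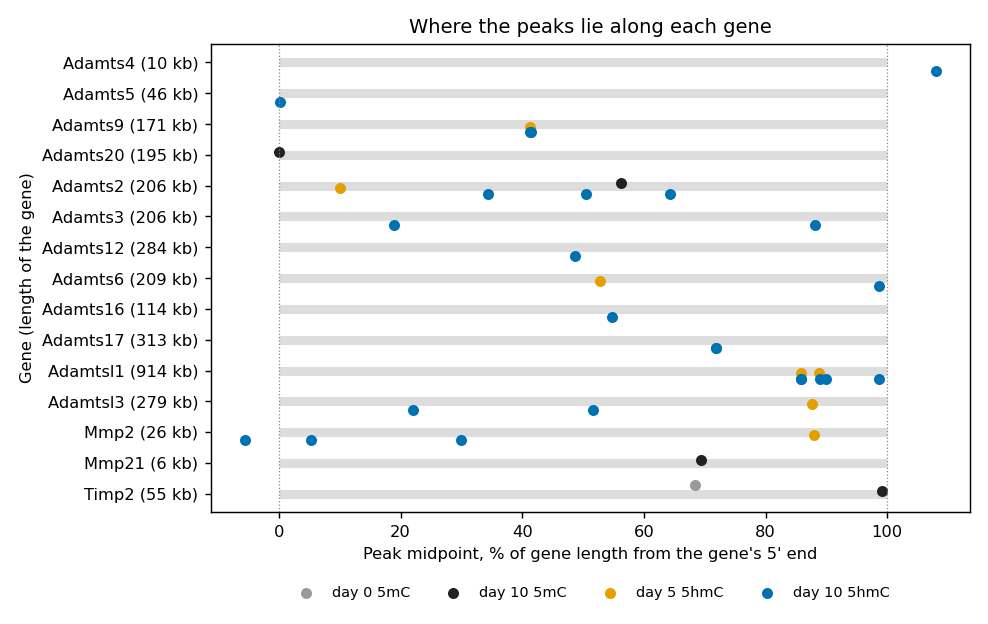
Each point is the midpoint of a peak at its place along the gene, in percent of the gene's length from its 5′ end (grey bars, 0 to 100%; gene length in kb beside each name), coloured by list. Day 5 and day 10 5hmC points coincide in Adamts9 and at 85.9% of Adamtsl1, and 1 day 10 5hmC point, that of Adamts5, lies within 1000 bp of a gene start, while the 5mC point of Adamts20 lies at the start of its noncoding transcript.

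Over all these genes, the 7 day 5 5hmC peaks comprised 4 in introns and 3 that overlapped coding exons. The 24 day 10 5hmC peaks comprised 17 in introns, 3 that overlapped coding exons, 2 in UTRs, 1 upstream and 1 downstream of the gene. Of these 24 peaks, 23 had their midpoint over 1000 bp from the start of the gene. The same counts over all peaks of the lists are not given here, so no pattern particular to these genes is read from them. The counted peaks that lay wholly outside the GENCODE gene were the upstream peak of Mmp2, described next, and that of Adamts4 past the end of the gene. The nearest peaks at genes that the rule left without any were day 10 5hmC peaks 10.7 kb from Mmp15 and 11.8 kb from Mmp19.

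Mmp2, or gelatinase A, which cuts denatured collagen and basement membrane collagen, was the only MMP gene with 5hmC, with 4 peaks at a gene of 26.1 kb. Its day 5 peak at chr8:92849820-92850729 (910 bp, 11 CpG) overlapped coding exon 12 of 13, towards the 3′ end. Its day 10 peaks lay in the 5′ part of the gene: chr8:92825744-92825953 was 1443 bp upstream of the start by its midpoint, chr8:92828487-92828814 was 1359 bp downstream of the start in intron 1, and chr8:92835022-92835204 was in intron 5. The nearest day 10 peak was 14.6 kb from the day 5 peak. The upstream peak is printed because it was the only one upstream of a gene here, and the central 300 bp of the intron 1 peak because it had the highest CpG content of all peaks at these genes (15 CpG, 4.57 per 100 bp). Both are on the plus strand, the gene's own, with CpG in capitals.
Mmp2 chr8:92825744-92825953: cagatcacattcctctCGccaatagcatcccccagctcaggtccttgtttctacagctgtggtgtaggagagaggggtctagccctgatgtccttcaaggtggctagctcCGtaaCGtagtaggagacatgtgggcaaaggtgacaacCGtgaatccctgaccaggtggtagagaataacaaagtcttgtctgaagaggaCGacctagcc
Mmp2 chr8:92828501-92828800: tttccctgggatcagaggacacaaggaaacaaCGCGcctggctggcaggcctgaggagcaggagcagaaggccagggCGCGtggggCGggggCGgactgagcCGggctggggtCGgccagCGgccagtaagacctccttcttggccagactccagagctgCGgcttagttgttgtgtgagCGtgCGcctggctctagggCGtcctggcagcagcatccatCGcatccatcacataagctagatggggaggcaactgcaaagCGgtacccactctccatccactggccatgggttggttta
The upstream stretch holds 5 CpG and no repeat base, and the intron 1 stretch holds all 15 CpG of its peak. The peak in intron 5 held 1 CpG (0.546 per 100 bp), the lowest CpG content of the day 10 5hmC peaks here. Within this 1 gene the day 10 5hmC peaks thus spanned the whole range of CpG content seen in that list's peaks at these genes.

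**Figure D4:**
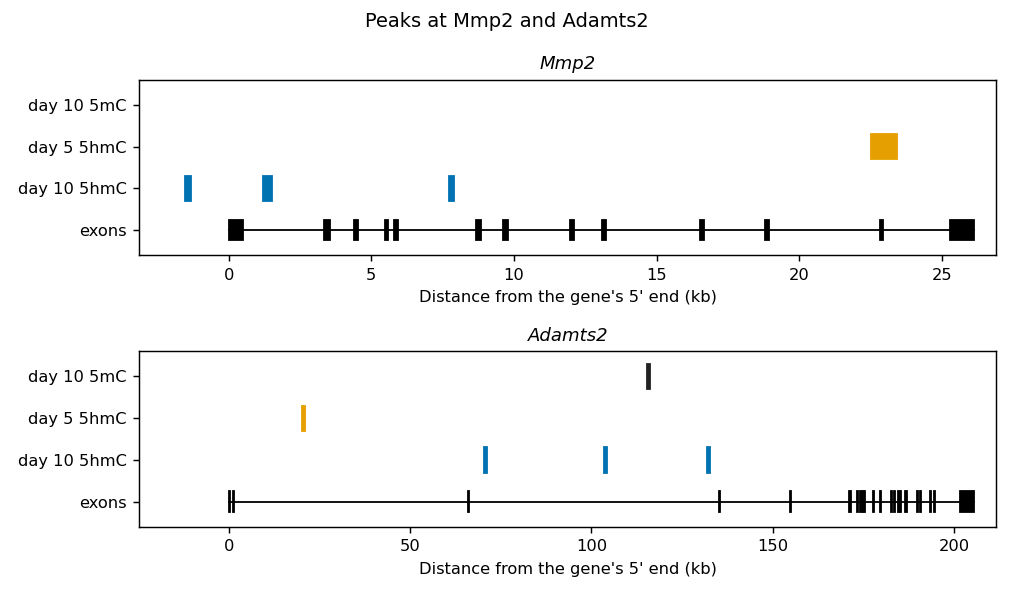
Peaks of the day 10 5mC, day 5 5hmC and day 10 5hmC lists (coloured boxes, to scale with a minimum drawn width) above the exons of the longest coding transcript (black) of Mmp2 and Adamts2, by distance from the gene's 5′ end in kb. In Mmp2 the 3 day 10 5hmC peaks lie toward the 5′ end and the day 5 peak at 23 kb, and in Adamts2 the 5mC peak at 115.7 kb lies between day 10 5hmC peaks at 103.8 and 132.2 kb.

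The other MMP gene with a peak was Mmp21, with day 10 5mC at chr7:133675552-133676534 (983 bp, 21 CpG), over coding exon 5 of 7. The collagenases, stromelysins and matrilysin (8 genes) and the 6 membrane-type MMP genes had no peak in any list. These include Mmp13, the collagenase of hypertrophic chondrocytes, and Mmp14, which activates the Mmp2 proenzyme. The 10 genes of the MMP cluster on chromosome 9, from Mmp13 to Mmp7 (chr9:7272514-7699585, 427.1 kb), lay in a stretch with 0 peaks. The nearest peak was 250 kb away at day 5 and 262 kb at day 10 for 5hmC, and 415 kb at day 10 and 779 kb at day 0 for 5mC. For Mmp13 itself these distances were 667, 679, 766 and 779 kb. For Mmp9, or gelatinase B, the nearest 5hmC peaks were 418 kb (day 5) and 311 kb (day 10) away, and for Mmp14 they were 41.4 and 35.9 kb away. Mmp16, a membrane-type MMP gene and at 266.3 kb the longest MMP gene, had its nearest day 10 5hmC peak 3966 kb away.

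Among the inhibitors, Timp2, which binds the Mmp2 proenzyme together with Mmp14, was the only gene with 5mC at both days. Its day 0 peak at chr11:118318001-118318703 (703 bp) lay in intron 2 and its day 10 peak at chr11:118300852-118302182 (1331 bp) in the 3′ UTR in exon 5, 15.8 kb apart. The day 0 peak held 3 CpG (0.427 per 100 bp) and 59.3% repeat sequence, and the day 10 peak held 34 CpG (2.55 per 100 bp) and 11.9% repeat sequence. This followed the lists, whose medians were 0.523 CpG per 100 bp and 78.7% repeat at day 0 and 2.42 and 14% at day 10. Timp1, Timp3 and Timp4 had no peak. The nearest 5hmC peaks of Timp3, the TIMP that blocks ADAMTS aggrecanases, were 19.3 kb (day 5) and 88 kb (day 10) away, and those of Timp1 7483 and 122 kb.

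Median CpG content at these genes was near that of the lists, from 7 day 5 5hmC, 24 day 10 5hmC and 4 day 10 5mC peaks. The median CpG content was 1.98 per 100 bp for day 5 5hmC (list 1.61), 1.67 for day 10 5hmC (list 1.8) and 2.57 for day 10 5mC (list 2.42). Among the day 10 5hmC peaks it ranged from 0.546 to 4.57, and 16 of the 24 held no repeat base. Their median repeat content was 0%, as was that of the whole day 10 5hmC list. The 4 day 10 5mC peaks were 758 to 1331 bp wide and held 21 to 34 CpG each.

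**Figure D5:**
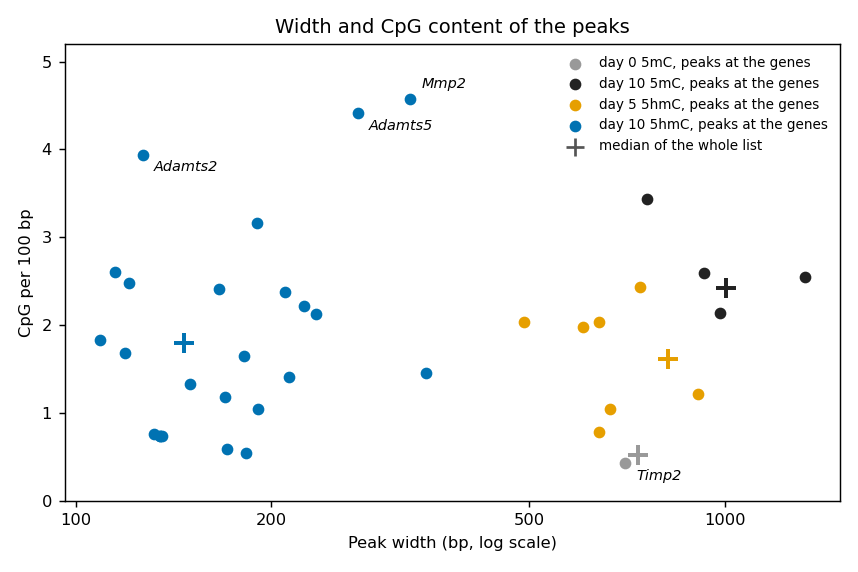
Each point is a peak at a protease or inhibitor gene, by its width (bp, log scale) and its CpG content per 100 bp, coloured by list, and crosses are the medians of whole lists. The day 10 5hmC peaks are 109 to 346 bp wide and span 0.546 to 4.57 CpG per 100 bp, with Mmp2 intron 1 and Adamts5 at the top, and the other lists lie at larger widths.

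Other genes of matrix proteolysis were counted in a list of 27 (ADAM proteases, plasminogen activators, cathepsins, proprotein convertases, tolloids, pappalysins and related genes), of which 15 were at least 50000 bp long. Day 10 5hmC was listed at 5 of them: Htra1, Pappa2, Pcsk6, Thsd4 and Tll2. The background for such counts is that given above, 8.32% of all protein-coding genes and 23.5% of those of at least 50000 bp for day 10 5hmC, and 5.27% and 14% for day 5 5hmC. For 5mC it is 6.71% and 16.2% at day 10, and 0.556% and 1.72% at day 0. Day 5 5hmC was listed at 3 (Pcsk5, Serpine2 and Thsd4), day 10 5mC at 2 (Lrp1 and Tll2) and day 0 5mC at 1 (Pcsk5). Thsd4, which codes for a further ADAMTS-like protein, had 1 day 5 and 4 day 10 5hmC peaks, all in introns of a 555.1 kb gene.

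Of 11 substrates of these enzymes, Fbn1 (fibrillin, a microfibril protein that several ADAMTS and ADAMTS-like proteins bind) had 4 day 5 and 4 day 10 5hmC peaks and 1 day 0 5mC peak. Col3a1 had 1 day 5 5hmC peak and Fbn2 1 day 10 5mC peak. Acan, Vcan, Comp, Col2a1 and Col10a1, which code for aggrecan, versican, cartilage oligomeric matrix protein and cartilage collagens, had no peak in any list, nor had Bcan, Ncan and Col1a1. The study does report 5hmC at Acan and Col2a1 in these cells, rising by day 10, and measured it at chosen sites of both at day 5. A gene missing from these lists can therefore carry the mark. Of the 11 substrate genes, 4 were at least 50000 bp long. The background shares are those given above, with 5hmC at 8.32% (day 10) and 5.27% (day 5) of all protein-coding genes. Nothing is read from these absences, and their cause was not tested.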

How the data were processed

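Genomic DNA from 6 enriched samples of ATDC5 cells was profiled for 5mC or 5hmC, and the files are 4 lists of peaks. Per the study's methods, single-end reads were trimmed with Cutadapt, aligned to GRCm38 with BWA and filtered by mapping quality, and peaks were called with MACS (version 1.4.2 per the submitters' processing notes). The deposited files hold other values than counts: peak starts and ends, with a gene symbol for some peaks, in lists of at least 3-fold (5mC) or 10-fold (5hmC) enrichment per the file headers, a ratio that is not given per peak. The methods do not settle whether lists hold all sites of a mark or differences between samples. The threshold, control and depth set the number and width of peaks. Blank lines of the 5hmC files (27818 at day 5, 25449 at day 10) were skipped.

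Peaks were placed on GENCODE mouse release 21, with positions as in the files and widths as end minus start plus 1, in Python 3.11.15 with numpy 2.4.6, scipy 1.17.1, pysam 0.24.0 and matplotlib 3.10.9. A location was taken over all transcripts of the gene. Coding exons and UTRs of protein-coding transcripts came first, then exons of other transcripts, then introns. Intron and exon numbers are those of the longest coding transcript. RefSeq gene ends are those of its GRCm38.p6 set. Sequence came from the NCBI GRCm38.p6 assembly, in which lower case marks repeats. No test was made, as each mark and day has 1 list, and counts have 95% Wilson intervals and, at 0, the limit that 3 counts allow. Placement and string search were tested on simulated data (200 of 200 recovered each). Every gene with a peak was named, with the nearest peak of selected genes. The members and gene lists were chosen with earlier results of these data known. From the list of other matrix proteolysis genes, 1 gene is not reported here.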

Additional observations from a re-analysis of the deposited data

How the results depend on the processing

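The numbers of genes with a peak and of peaks were recomputed with 2000 bp upstream, the gene body alone, 10000 bp on either side, position or symbol alone, peak midpoints and the longest coding transcript, and the numbers of peaks also with joined peaks. The numbers of genes with 5hmC at both days and with both marks were recomputed under these but the last 2. All of these stayed within 1.5 times their value. In these settings, peaks that bore the depositors' symbol of the gene were kept, except under position alone. All 7 day 5 and all 24 day 10 5hmC peaks bore it. Apart from joining peaks, only position alone could therefore lower a 5hmC number, and the other settings do not test these numbers for loss. Position alone dropped Adamts4, and the symbol alone or the longest coding transcript dropped Adamts20. Keeping only peaks of at least their list's median width left a peak at 0 (day 0 5mC), 1 (day 10 5mC) and 1 (day 5 5hmC) genes, with 0, 1 and 1 peaks, and 15 day 10 5hmC peaks. It also left 1 gene with 5hmC at both days and 0 with both marks at day 10, as fewer peaks were used. Asking that 50% of both peaks be shared left 0 day 5 5hmC peaks with an overlap, since the day 10 peaks are narrower. In windows of 200 bp, 2 day 10 5hmC peaks held an AP-1 string and 2 a RUNX string, and the median CpG content of day 10 5mC peaks at these genes was 4.25 per 100 bp. The cause of these last shifts was not tested. The depth is unknown. No paired analysis was possible because the numbered 5hmC samples were merged into 1 list per day, and for the same reason no replicate could be left out. A stricter fold or score could not be tried, as the lists give none per peak.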
